A study of Mus musculus with 8 samples.

Results

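The genes described here are 8 that mark macrophages and their lysosomes and complement: Lyz2, Ctss, C1qa, C1qb, C1qc, Mrc1, Cd68 and Csf1r. They are 8 of 17097 genes that the arrays read through probe sets with 1 gene symbol, and each was read by 1 such probe set. They were chosen by their symbols, with their values on these arrays already known. Their levels and differences are therefore given as a description, with no test, and they support nothing by themselves. All 8 passed the filter on dim genes, as did 14403 genes in all, and a gene that is high in 1 group passes this filter through that group.

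Expression was measured in tumour cells sorted from the back skin of mice with basal cell carcinoma, 1 array for each sorted population of each mouse. All mice were K14-CreER/Ptch1cKO, in which a tamoxifen-inducible Cre under the keratin 14 promoter deletes Ptch1, the receptor that restrains Hedgehog signalling, in basal epidermal cells. The endogenous Lgr5 gene carried a green fluorescent protein reporter. Both sorted populations were positive for surface Lrig1. The Lgr5-negative population (spelled Lrg5-Lrig1+ in the labels) lacked the reporter and the Lgr5+Lrig1+ population carried it. There were 2 untreated mice and 2 mice treated with vismodegib, an inhibitor of the Hedgehog transducer Smoothened, which gives 4 groups with n = 2 mice each. Epidermis was separated from dermis with thermolysin, and living single cells were gated by scatter and dye exclusion. No marker that would remove leukocytes is named for the sort. All groups, untreated ones included, carry the Ptch1 deletion. The labels give neither age nor the dose and duration of vismodegib. The series title concerns relapse after therapy, and the comparisons asked what vismodegib changed in each population and how the populations differed within each treatment.

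Macrophages are phagocytes that take up debris and microbes and break them down in lysosomes. Lyz2 encodes lysozyme M, which cleaves bacterial cell walls. Ctss encodes cathepsin S, a lysosomal protease that trims the invariant chain of MHC class II. Cd68 encodes a heavily glycosylated protein of the lysosomal membrane. C1qa, C1qb and C1qc encode the chains of C1q, which opens the classical complement pathway by binding antibody complexes and dying cells and which macrophages and dendritic cells secrete. Mrc1 encodes the mannose receptor of tissue macrophages, and Csf1r the receptor for the growth factors Csf1 and Il34, on which most macrophages and the Langerhans cells of the epidermis depend.

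The 3 C1q genes lie next to each other on mouse chromosome 4, in the order C1qb, C1qc and C1qa, with no other gene of the RefSeq table (GRCm38.p6) between them. Promoters are shown for these neighbours because their signals correlated at 0.95 to 0.98 with each other, for Lyz2 because its signal had the widest range, and for Cd68 because it was least like the others. RefSeq (GRCm38.p6) gave a promoter for 6 of the 8 genes, all but C1qa and Csf1r. Each sequence below is the 250 bases before the gene's start, 5′ to 3′ on the gene's strand. Capitals mark GAGGAA, the core bound by the myeloid ETS factor PU.1, and AGGAAGT, an ETS core, which overlaps the first by up to 5 bases, on either strand. The sequences lie at chr4:136886201-136886450 for C1qb, chr4:136892915-136893164 for C1qc, chr10:117282273-117282522 for Lyz2 and chr11:69666171-69666420 for Cd68, all on the minus strand.
C1qb: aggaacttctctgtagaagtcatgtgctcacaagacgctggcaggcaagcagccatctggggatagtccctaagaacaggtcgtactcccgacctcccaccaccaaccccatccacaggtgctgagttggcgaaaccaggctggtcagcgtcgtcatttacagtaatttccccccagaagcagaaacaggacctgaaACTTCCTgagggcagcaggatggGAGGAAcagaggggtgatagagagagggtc
C1qc: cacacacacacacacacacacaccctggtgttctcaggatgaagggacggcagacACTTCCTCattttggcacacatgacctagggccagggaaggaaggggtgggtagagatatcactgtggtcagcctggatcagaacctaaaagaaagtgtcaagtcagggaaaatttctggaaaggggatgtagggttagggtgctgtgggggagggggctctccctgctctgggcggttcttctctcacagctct
Lyz2: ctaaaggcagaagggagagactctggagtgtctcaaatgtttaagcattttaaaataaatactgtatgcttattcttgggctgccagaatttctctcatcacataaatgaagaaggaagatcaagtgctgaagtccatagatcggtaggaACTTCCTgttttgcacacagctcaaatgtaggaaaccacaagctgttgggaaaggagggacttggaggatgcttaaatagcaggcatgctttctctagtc
Cd68: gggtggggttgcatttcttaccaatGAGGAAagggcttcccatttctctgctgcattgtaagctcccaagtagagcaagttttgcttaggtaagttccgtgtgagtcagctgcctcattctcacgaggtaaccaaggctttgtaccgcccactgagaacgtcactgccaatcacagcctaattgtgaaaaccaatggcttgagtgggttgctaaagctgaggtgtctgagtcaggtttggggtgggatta

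GAGGAA was found in 5 of the 6 promoters, all but that of Lyz2, and in 23.3% of 32817 windows of the same length. AGGAAGT was found in 4, those of C1qb, C1qc, Lyz2 and Mrc1, and in 7.69% of windows. In C1qc the matches overlap, and in C1qb they lie 53 and 30 bases before the start. Other motifs were searched on both strands too. The C/EBP motif TTGCNNAA (9.57% of windows) and the AP-1 motif TGANTCA (6.75%) were found in Cd68 alone. The MAF site TGCTGAC (3.81%) and TCACGTG, an E-box of the type read by the lysosomal regulator TFEB (3.13%), were found in none of the 6. A match is a string of letters and was not tied to binding.

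Values are log2 signals. Array medians lay between 6.13 and 6.20. The 25th percentile of all values, 4.85, is used as the limit for dim genes and is no measured background. Lgr5 was higher in the Lgr5-positive arrays, at 10.98 and 11.00 against 8.52 and 8.40 in untreated mice and at 9.44 and 10.03 against 5.46 and 4.83 after vismodegib. Lrig1 lay between 10.63 and 11.60 in all arrays. The basal keratin Krt5 lay between 12.71 and 12.91, and the mean of 13 basal keratinocyte markers between 11.30 and 11.53. The leading principal component (48.2% of variance) set both untreated Lgr5-positive arrays, with scores of 48.9 and 45.4, apart from the other 6, with scores from −31.1 to −7.13. As these are both arrays of a group, that group's differences cannot be given without them. In sorted bulk samples, fewer cells of a type and less RNA per cell cannot be told apart. P-values rest on a spread for each gene that limma pooled over the 4 groups of 2 mice and moderated with a prior. The main fit does not use the pairing of populations within a mouse.

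The 8 genes together were lowest in untreated Lgr5-positive cells and highest in vismodegib Lgr5-positive cells. Their mean log2 signal was 5.90 and 5.49 in the untreated Lgr5-positive arrays and 6.74 and 7.18 in the untreated Lgr5-negative arrays. After vismodegib it was 7.82 and 7.89 in Lgr5-negative and 9.25 and 8.87 in Lgr5-positive arrays. The order of the populations was thus reversed between treatments, and neighbouring groups in this order did not overlap.

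**Figure D1:**
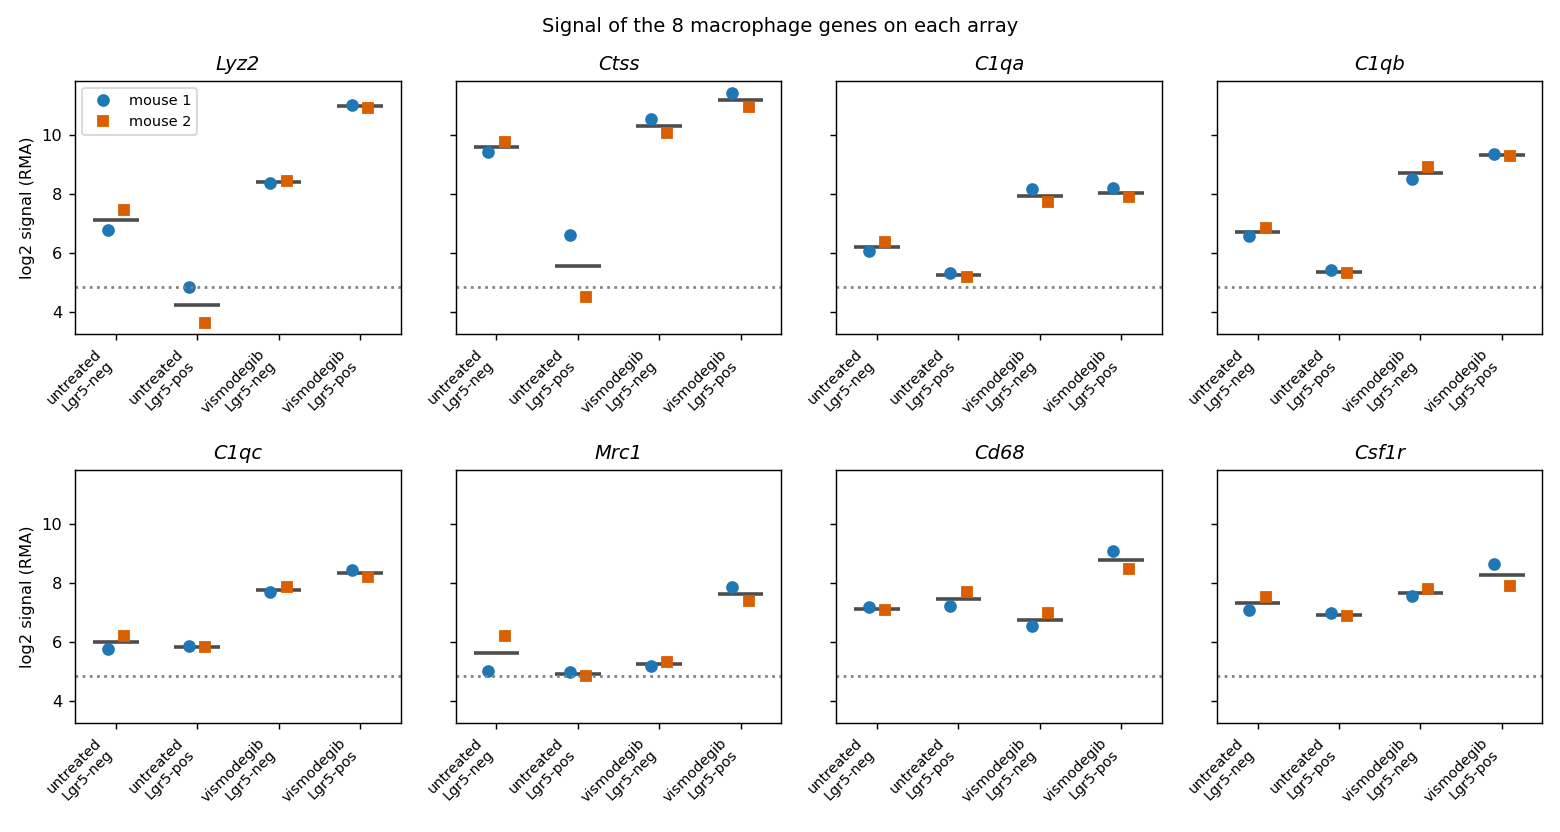
Log2 signal (vertical axis) of each gene on each of the 8 arrays, by group (horizontal axis). Points are mice, bars are means of 2 and the dotted line is the dim limit of 4.85; mouse 1 and mouse 2 of the untreated groups are not those of the vismodegib groups. Lyz2 runs from 3.63 to 11.02, while Cd68 and Csf1r move less and Mrc1 is high in vismodegib Lgr5-positive arrays alone.

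Among the lysosomal genes, Lyz2 had the widest range. It read 6.78 and 7.48 in untreated Lgr5-negative, 4.85 and 3.63 in untreated Lgr5-positive, 8.39 and 8.45 in vismodegib Lgr5-negative and 11.02 and 10.93 in vismodegib Lgr5-positive arrays. No 2 groups overlapped, and both untreated Lgr5-positive arrays lay at or under the dim limit. Vismodegib Lgr5-positive cells were therefore at least 69.7-fold above untreated ones when the dim group is set to the limit, with 6.73 ± 0.38 as the fitted log2 difference (± limma standard error, here and below). In Lgr5-negative cells the log2 difference was 1.29 ± 0.38, or 2.45-fold. The Lyz2 probe set is of a kind that can bind related transcripts. The neighbouring lysozyme gene Lyz1, looked up for this reason after the values were seen, lay between 5.16 and 5.57 on all 8 arrays.

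Ctss, the cathepsin S gene, read 9.41 and 9.77 in untreated Lgr5-negative, 6.60 and 4.52 in untreated Lgr5-positive, 10.53 and 10.08 in vismodegib Lgr5-negative and 11.44 and 10.93 in vismodegib Lgr5-positive arrays. Untreated Lgr5-positive cells were 16.3-fold lower than their Lgr5-negative partners. The second of these arrays lay under the dim limit. The 2 untreated Lgr5-positive mice were further apart than those of any other group, which left the vismodegib effect in these cells (log2 difference 5.62 ± 0.58) at 4.59 without mouse 2 and at 6.66 without mouse 1. After vismodegib the populations differed by 0.88 ± 0.58, with groups that did not overlap.

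Cd68 departed from both. It read 7.19 and 7.07 in untreated Lgr5-negative, 7.22 and 7.70 in untreated Lgr5-positive, 6.53 and 6.97 in vismodegib Lgr5-negative and 9.06 and 8.45 in vismodegib Lgr5-positive arrays. The last group was higher than the other 3, by 2.45-fold over untreated Lgr5-positive and by 4.01-fold over vismodegib Lgr5-negative cells. In Lgr5-negative cells Cd68 was lower after the drug (−0.37 ± 0.25), without overlap, and this difference was −0.15 without vismodegib mouse 1 and −0.59 without vismodegib mouse 2. It was the only one of the 8 whose mean was higher in untreated Lgr5-positive than Lgr5-negative cells, by 0.34 ± 0.25, a gap that was 0.58 without Lgr5-positive mouse 1 and 0.096 without Lgr5-positive mouse 2.

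The C1q chains were high after vismodegib in both populations. C1qb, the B chain, read 6.58 and 6.85 in untreated Lgr5-negative, 5.42 and 5.32 in untreated Lgr5-positive, 8.50 and 8.91 in vismodegib Lgr5-negative and 9.37 and 9.29 in vismodegib Lgr5-positive arrays. All 4 treated arrays lay above all 4 untreated arrays. The log2 difference between treatments was 3.96 ± 0.17 in Lgr5-positive and 1.99 ± 0.17 in Lgr5-negative cells.

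C1qa, the A chain, read 6.08 and 6.36 in untreated Lgr5-negative, 5.33 and 5.20 in untreated Lgr5-positive, 8.18 and 7.72 in vismodegib Lgr5-negative and 8.19 and 7.89 in vismodegib Lgr5-positive arrays. The treated populations overlapped, at a log2 difference of 0.09 ± 0.19. C1qc, the C chain, read 5.77 and 6.19 in untreated Lgr5-negative, 5.84 and 5.83 in untreated Lgr5-positive, 7.67 and 7.85 in vismodegib Lgr5-negative and 8.45 and 8.21 in vismodegib Lgr5-positive arrays. Here the untreated populations overlapped (−0.14 ± 0.17), and the treated ones differed by 0.57 ± 0.17. The vismodegib differences of C1qa and C1qc were 2.77 ± 0.19 and 2.49 ± 0.17 in Lgr5-positive and 1.72 ± 0.19 and 1.78 ± 0.17 in Lgr5-negative cells. In Lgr5-negative cells the differences of the 3 chains ran from 1.72 to 1.99, and in Lgr5-positive cells from 2.49 to 3.96.

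The mannose receptor Mrc1 read 5.02 and 6.19 in untreated Lgr5-negative, 4.98 and 4.84 in untreated Lgr5-positive, 5.17 and 5.33 in vismodegib Lgr5-negative and 7.85 and 7.40 in vismodegib Lgr5-positive arrays. The last group was higher than the other 3, 6.55-fold above untreated Lgr5-positive and 5.17-fold above vismodegib Lgr5-negative cells. In Lgr5-negative cells the groups overlapped (−0.35 ± 0.34), and this difference was −0.94 without untreated mouse 1 and 0.23 without untreated mouse 2.

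Csf1r read 7.08 and 7.52 in untreated Lgr5-negative, 6.98 and 6.86 in untreated Lgr5-positive, 7.54 and 7.79 in vismodegib Lgr5-negative and 8.65 and 7.89 in vismodegib Lgr5-positive arrays. The 4 groups rose in small steps that did not overlap, although 7.52 and 7.54, or 7.79 and 7.89, are close. Its difference was 1.35 ± 0.26 in Lgr5-positive and 0.37 ± 0.26 in Lgr5-negative cells, and the first fell to 0.97 without mouse 1 of the vismodegib Lgr5-positive group. The second was 0.15 without untreated mouse 1, 0.59 without untreated mouse 2 and 0.24 without vismodegib mouse 2. Of its ligands, Il34 rose in Lgr5-negative cells (1.04 ± 0.14, adjusted p = 0.012 by limma with Benjamini-Hochberg adjustment), a call that was lost without either untreated Lgr5-negative array. Csf1 lay between 7.01 and 7.56 on all arrays and did not pass in any of the 5 comparisons.

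**Figure D2:**
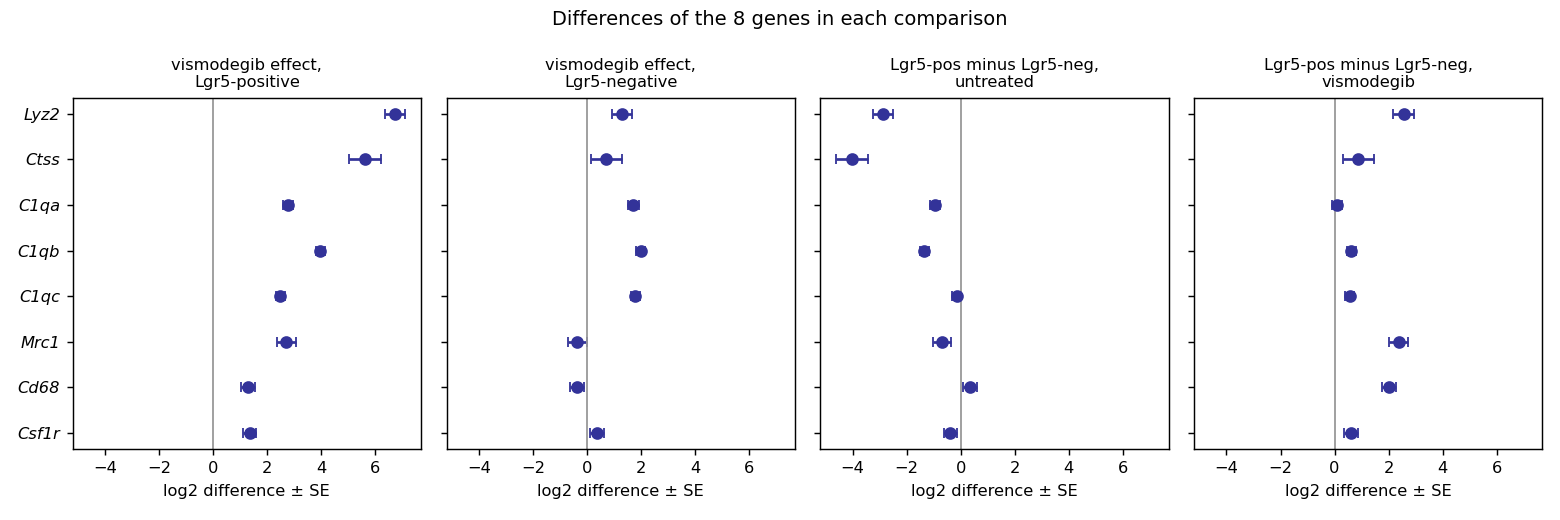
Log2 difference (horizontal axis) of each gene (vertical axis) in 4 comparisons of 2 groups, with bars for the standard error from limma and n = 2 mice a group. The largest differences are those of Lyz2 (6.73) and Ctss (5.62) for vismodegib in Lgr5-positive cells, and Cd68 lies on the other side of 0 from the C1q genes in the panels for Lgr5-negative and untreated cells.

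Read across the comparisons, the 8 genes did not change in equal measure. For vismodegib in Lgr5-positive cells all 8 were higher with groups that did not overlap, where 27.9% of all tested genes were higher and 26.9% lower in this way. Their median log2 difference was 2.74 (range 1.30 to 6.73) and that of all genes −0.01. This comparison was known when the genes were chosen, so nothing is read from its count.

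For vismodegib in Lgr5-negative cells, 6 were higher and 1, Cd68, lower without overlap (26.5% and 24.9% of all genes). The median of the 8 was 1.00 and that of all genes 0.0048. In this comparison C1qb (3.97-fold), C1qc (3.44-fold) and C1qa (3.31-fold) led, ahead of Lyz2 (2.45-fold) and Ctss (1.64-fold). The order differed from that in Lgr5-positive cells, where Lyz2 and Ctss led.

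Between untreated populations, 6 genes were lower in Lgr5-positive cells and Cd68 higher without overlap (31.2% and 33.4% of all genes). The median of the 8 was −0.82 and that of all genes 0.02. Ctss (−4.03 ± 0.58) and Lyz2 (−2.89 ± 0.38) had the widest gaps, C1qb (−1.34 ± 0.17) and C1qa (−0.95 ± 0.19) smaller ones. After vismodegib, 7 genes were higher in Lgr5-positive cells without overlap (21.2% of all genes, with 22.5% lower). The median of the 8 was 0.75 and that of all genes −0.01. Lyz2 (2.56 ± 0.38), Mrc1 (2.37 ± 0.34) and Cd68 (2.00 ± 0.25) differed most, while Ctss and the C1q genes differed by at most 0.88.

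Differences can also be read within each mouse, as both populations came from each mouse. In untreated mouse 1 and mouse 2, Lyz2 was lower in the Lgr5-positive population by a log2 difference of −1.93 and −3.84, and in the vismodegib mice it was higher by 2.63 and 2.48. Ctss went from −2.81 and −5.24 to 0.90 and 0.86. Mrc1 went from −0.04 and −1.35 to 2.67 and 2.07. Cd68 went from 0.03 and 0.64 to 2.53 and 1.48. C1qa, by contrast, went from −0.75 and −1.16 to 0.02 and 0.17.

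The vismodegib difference was more positive in Lgr5-positive than in Lgr5-negative cells for all 8 genes, by a median of 1.82 on the log2 scale. The median of all genes was −0.0023. The gap between the effects was 5.44 ± 0.53 for Lyz2, 4.91 ± 0.82 for Ctss and 3.07 ± 0.49 for Mrc1. It was 1.97 ± 0.24 for C1qb, 1.67 ± 0.36 for Cd68, 1.05 ± 0.27 for C1qa, 0.98 ± 0.36 for Csf1r and 0.71 ± 0.24 for C1qc. These comparisons share arrays, so they are not independent of those above.

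Across the 8 arrays Pearson's r was 0.98 for C1qa and C1qb, 0.96 for C1qb and C1qc and 0.95 for C1qa and C1qc. It was 0.95 for Lyz2 and C1qb as well. Cd68 was least like the rest, with r from 0.21 (Ctss) to 0.82 (Mrc1). The arrays fall into 4 groups of 2, and these correlations largely restate the group means.

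**Figure D3:**
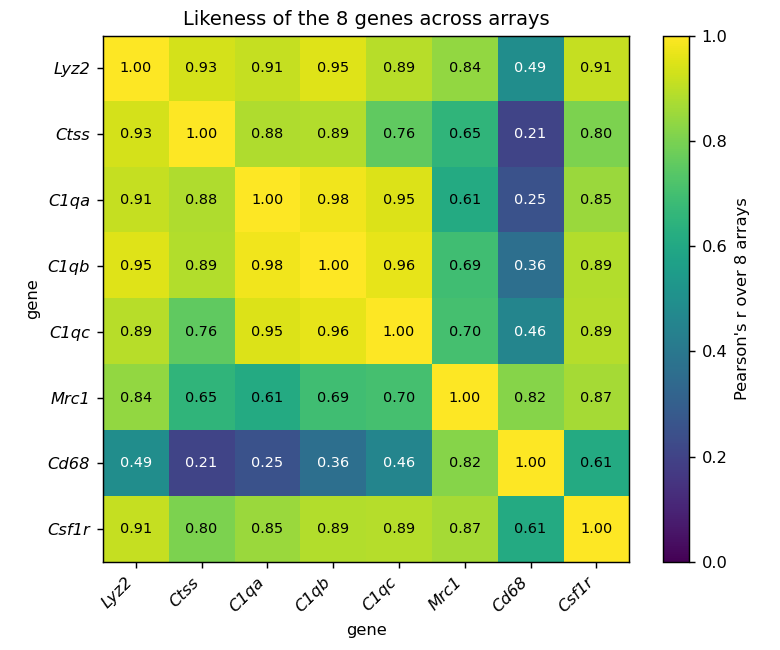
Pearson's r over the 8 arrays for each pair of the 8 genes, which label both axes. The 3 C1q genes form a block at 0.95 to 0.98, and Cd68 has its highest value with Mrc1 (0.82).

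Of the other genes tested, the 8 most like the mean of the set over the 8 arrays were Itgb2 (r = 0.980), Lilrb4a, Vim, Ccrl2, Ms4a6d, Mycbp2, Tgfbr3 and Plek (r = 0.967). Cd14 was the gene nearest to C1qc (r = 0.995), Fcgr3 to Csf1r (r = 0.996), Pdlim4 to C1qa (r = 0.986), Fnbp1 to C1qb (r = 0.987), Slc15a4 to Ctss (r = 0.988), Ccrl2 to Lyz2 (r = 0.978), Itga6 to Mrc1 (r = 0.976) and Gpr137b to Cd68 (r = 0.961). These values come from 8 arrays in 4 groups and were picked as the highest of all genes tested.

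For vismodegib in Lgr5-positive cells, 9 of 19 tested genes of a list of macrophage identity rose and 1 fell, where 6.37% and 4.51% of all genes did. Their median was 0.60. This list and those below were chosen with earlier results of these data known. The chemokine Pf4 rose at least 13.5-fold (3.91 ± 0.32, adjusted p = 0.000569 by limma). Pf4 was above the dim limit on 3 arrays, both vismodegib Lgr5-positive ones and untreated Lgr5-negative mouse 2 (5.50). It thus passed the filter only through the group where it is high, here and in the comparisons below. Ms4a7 rose by 2.31 ± 0.20 (1.22 as the mean of its 2 probe sets) and the beta-glucan receptor Clec7a by 2.29 ± 0.26. Adgre1, a surface antigen of mouse macrophages, rose at least 2.76-fold (1.72 ± 0.23). Mertk, a receptor for dying cells, fell (−0.80 ± 0.20, adjusted p = 0.0453). The count of 10 was 6 without untreated Lgr5-negative mouse 1 or mouse 2, untreated Lgr5-positive mouse 1 or vismodegib Lgr5-positive mouse 1, and 6 with only the 4 arrays compared. Of 24 measured, 3 defining markers, Cd163, Timd4 and Vsig4, were dim on all 8 arrays, and the integrin Itgam (CD11b) was above the limit on 1 array, at 4.93.

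Fewer of these 19 genes passed in the other comparisons. Clec7a (1.39 ± 0.26) and Cd14 (0.88 ± 0.14), a receptor for bacterial lipid, rose with vismodegib in Lgr5-negative cells, where 1.26% of all genes rose and 2.06% fell. This count of 2 was 0 without either untreated Lgr5-negative array and 1 without either vismodegib Lgr5-negative or either untreated Lgr5-positive array. Without vismodegib Lgr5-negative mouse 2 neither Clec7a nor Cd14 passed, so the 1 gene counted there is another. Between untreated populations Mertk was higher (1.58 ± 0.20) and Clec7a lower (−1.18 ± 0.26) in Lgr5-positive cells, where 6.21% and 10.9% of all genes were. The call of Clec7a was lost without either untreated Lgr5-positive array or without untreated Lgr5-negative mouse 2.

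After vismodegib Pf4 (3.86 ± 0.32, adjusted p = 0.00638) and Ms4a7 (1.32 ± 0.20, adjusted p = 0.0475) were higher in Lgr5-positive cells, as 0.34% of all genes were, while 0.132% were lower. Pf4 passed whichever array was left out. Ms4a7 lost its call without any array but vismodegib Lgr5-negative mouse 2, and its adjusted p was 0.0661 with the mouse as a block. In limma's test of the difference between the vismodegib effects, Pf4 and Ms4a7 passed as more positive in Lgr5-positive cells, as 0.993% of all genes did, with 0.41% the other way. That count of 2 was 0 without vismodegib Lgr5-positive mouse 1 or untreated Lgr5-negative mouse 2 and 1 with the mouse as a block.

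Of 16 other complement genes tested, 4 rose and 1 fell for vismodegib in Lgr5-positive cells, where 6.37% and 4.51% of all genes did. Their median was 0.28. The receptor C3ar1 had the largest difference (3.30 ± 0.60, adjusted p = 0.0141), a call that did not survive leaving out vismodegib Lgr5-positive mouse 1 or either untreated array of that population. The receptor C5ar1 (2.31 ± 0.27, adjusted p = 0.00212) and Cd55, an inhibitor of complement on cell surfaces (2.01 ± 0.11), rose and passed whichever array was left out. The chaperone clusterin (Clu, −2.06 ± 0.34) fell, a call lost without mouse 2 of either Lgr5-positive group. Cd55 rose in Lgr5-negative cells as well (2.14 ± 0.11). C5ar1 was higher in Lgr5-positive cells after vismodegib (2.42 ± 0.27, adjusted p = 0.0172), a call lost without either untreated Lgr5-negative or either vismodegib Lgr5-positive array and with only the arrays compared.

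Of 36 other genes of lysosomes and their control, 7 rose for vismodegib in Lgr5-positive cells, where 6.37% of all genes did and 4.51% fell. Their median was 0.30. The fit with limma called 0 lower, and 3 were lower at an unadjusted p under 0.05. The count of 7 ran from 4 to 9 over the alternative settings other than leaving out an array. Cathepsin K (Ctsk, 2.23 ± 0.46, adjusted p = 0.0221) had the largest difference, a call lost without either untreated Lgr5-positive array. Its call was lost also with only the arrays compared. The transcription factor Mitf (2.14 ± 0.23) rose and passed whichever array was left out, at 1.14 as the mean of its 2 probe sets. Tartrate-resistant acid phosphatase (Acp5, 1.85 ± 0.33) and cathepsin C (Ctsc, 1.60 ± 0.32) rose too. Both lost their calls without either vismodegib Lgr5-positive array, and Acp5 also with only the arrays compared.

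In Lgr5-negative cells cathepsin L (Ctsl, −1.14 ± 0.15) and acid ceramidase (Asah1, −1.01 ± 0.17) fell, where 2.06% of all genes did and 1.26% rose. Both calls were lost without either untreated Lgr5-negative array or vismodegib Lgr5-negative mouse 2. That of Asah1 was lost also without either vismodegib Lgr5-positive array and with only the arrays compared. That of Ctsl was lost also as the mean of its probe sets. Between untreated populations Ctsc was lower in Lgr5-positive cells (−2.98 ± 0.32, adjusted p = 0.00185), and it passed whichever array was left out. Acp5 and Ctsd were also lower there and Ctsz and Ctsl higher, which makes 3 lower and 2 higher of 36, where 10.9% and 6.21% of all genes were. The calls of Acp5, Ctsd and Ctsz were each lost without either untreated Lgr5-negative array, and that of Ctsz without either untreated Lgr5-positive array too. Ctsd was lost also without untreated Lgr5-positive mouse 1, with cyclic loess and with only the arrays compared. Acp5 was lost also with only the arrays compared. After vismodegib Ctsl and the acid lipase Lipa were higher in Lgr5-positive cells, where 0.34% of all genes were higher and 0.132% lower. Both calls were lost with only the arrays compared and without either untreated Lgr5-negative array or vismodegib Lgr5-positive mouse 1. Lipa was lost also without either vismodegib Lgr5-negative array, and Ctsl as the mean of its probe sets.

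For vismodegib in Lgr5-positive cells 10 of 17 tested markers of leukocytes in general rose, where 6.37% of all genes did and 4.51% fell. Their median was 1.49, and 0 were lower by limma's adjusted or unadjusted p. The common leukocyte antigen Ptprc (CD45) read 4.70 and 4.33 in untreated and 7.74 and 6.86 in vismodegib Lgr5-positive arrays, at least 5.46-fold higher (2.79 ± 0.39, adjusted p = 0.00506). In Lgr5-negative arrays it read 5.39 and 5.84 against 7.34 and 6.31 (1.21 ± 0.39), and did not pass. Of the 17 markers limma called 1 higher with vismodegib in Lgr5-negative cells, where 1.26% of all genes rose and 2.06% fell. This was Cd52 (0.86 ± 0.18, adjusted p = 0.0477), at 0.76 to 0.97 over the left-out arrays. Its call was lost with no filter, an intensity trend in the prior, only the arrays compared or the mouse number as a replicate block. The median of the 17 was 0.64 in Lgr5-negative cells, with 15 above 0. At an unadjusted p under 0.05, 11 were higher and 1 lower. In Lgr5-positive cells the adaptor Tyrobp (3.98 ± 0.29) and the integrin Itgb2 (3.89 ± 0.39) rose with vismodegib. Between untreated populations 7 of 17 were lower and 0 higher in Lgr5-positive cells, where 10.9% and 6.21% of all genes were. Tyrobp led these (−2.86 ± 0.29). Over the alternative settings other than leaving out an array, the count of 7 ran from 5 to 10. Cd53 (−1.57 ± 0.41) was among the 7, and its call was lost with no filter. Over the left-out arrays the difference of Tyrobp ran from −3.16 to −2.57 and that of Cd53 from −1.78 to −1.35. After vismodegib limma called 0 of 17 between populations, 1 at an unadjusted p under 0.05, and their median was −0.04. The median of the 8 genes was 0.75 there, and the difference between the medians was not tested.

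Of 13 dendritic cell and MHC class II markers, 5 rose and 0 fell for vismodegib in Lgr5-positive cells, where 6.37% and 4.51% of all genes did. H2-Aa had the largest difference (4.35 ± 0.73, adjusted p = 0.0101 by limma). It was 3.36 to 5.34 over the left-out arrays and 2.42 at the lowest of the other alternative settings. The invariant chain Cd74 (3.34 ± 0.33), which Ctss trims, and H2-Ab1 (2.13 ± 0.13) were also among the 5. In Lgr5-negative cells H2-Ab1 (0.73 ± 0.13) and H2-DMa (0.69 ± 0.14) rose, where 1.26% of all genes did and 2.06% fell. The call of H2-Ab1 was lost without any of 6 arrays, and that of H2-DMa without any of 7. Between untreated populations 4 of the 13 were lower and 0 higher in Lgr5-positive cells, where 10.9% and 6.21% of all genes were. H2-Aa was lower by −3.91 ± 0.73 and Cd74 by −2.78 ± 0.33. Over the left-out arrays H2-Aa ran from −4.90 to −2.92 and Cd74 from −3.22 to −2.33. At the other alternative settings the smallest difference of H2-Aa was −2.36, and the count of 4 ran from 3 to 6.

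The summed linear signal of 18 leukocyte markers lay between 2038 and 2399 in untreated Lgr5-positive arrays and between 3936 and 4691 in untreated Lgr5-negative arrays. After vismodegib it lay between 4282 and 6146 in Lgr5-negative and 4815 and 7358 in Lgr5-positive arrays, so that only the untreated Lgr5-positive arrays stood apart below.

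The sum of 24 macrophage markers was highest in vismodegib Lgr5-positive arrays (3090 to 3678). It lay between 2373 and 2470 in untreated Lgr5-positive, 2137 and 2367 in vismodegib Lgr5-negative and 1874 and 1927 in untreated Lgr5-negative arrays. This sum weighs bright genes most, Mertk among them, which read 8.16 and 8.07 in untreated Lgr5-negative and 9.75 and 9.63 in untreated Lgr5-positive arrays. The mean log2 signal of the same 24 genes overlapped between these groups, at 5.67 and 5.70 against 5.64 and 5.71. The sum of the 13 dendritic markers was highest in vismodegib Lgr5-negative arrays (8790 to 9044), then in vismodegib Lgr5-positive (7076 to 7275), untreated Lgr5-negative (4553 to 5456) and untreated Lgr5-positive arrays (1734 to 1900). Between the treated populations limma called 0 of these 13, with 3 lower in Lgr5-positive cells at an unadjusted p under 0.05. The part of these cell types in the levels of the 8 genes was not tested.

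Of 11 T cell markers limma called 0 in either vismodegib comparison, while at an unadjusted p under 0.05 there were 3 higher and 1 lower in Lgr5-positive and 2 lower in Lgr5-negative cells. Cd3e and Thy1 were lower in untreated Lgr5-positive than Lgr5-negative cells, where 10.9% of all genes were. The call of Cd3e was lost without mouse 2 of either untreated group, and that of Thy1 without any of 5 arrays (untreated Lgr5-negative mouse 2 and all 4 Lgr5-positive arrays) and with only the arrays compared. Of 5 tested neutrophil and mast cell markers 0 passed in any of the 5 comparisons, adjusted or not, and 6 of the 11 measured were dim on all arrays (Elane, Ngp, Cxcr2, Cpa3, Mcpt4 and Ms4a2). The Langerhans cell lectin Cd207 lay between 5.70 and 7.31 and did not pass in any comparison. Of 13 keratinocyte markers Cdh1 rose and Cdh3 fell for vismodegib in Lgr5-positive cells, at a median of 0.10, where 6.37% of all genes rose and 4.51% fell. Both calls were lost without either vismodegib Lgr5-positive array, without untreated Lgr5-positive mouse 2 and with only the arrays compared. Their summed signal lay between 43150 and 49160 over all arrays. The mean of 11 fibroblast markers lay 0.38 and 0.31 above its mean over the 8 arrays in untreated Lgr5-positive arrays. That of 5 melanocyte markers ran from −0.26 to 0.52 around its mean. Of 6 tested fibroblast markers limma called Col6a1 (2.09 ± 0.20) and Col1a1 (0.88 ± 0.17) higher in untreated Lgr5-positive than Lgr5-negative cells. For vismodegib in Lgr5-positive cells Fbln1 and Col6a1 fell, the latter call lost with only the arrays compared.

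**Figure D4:**
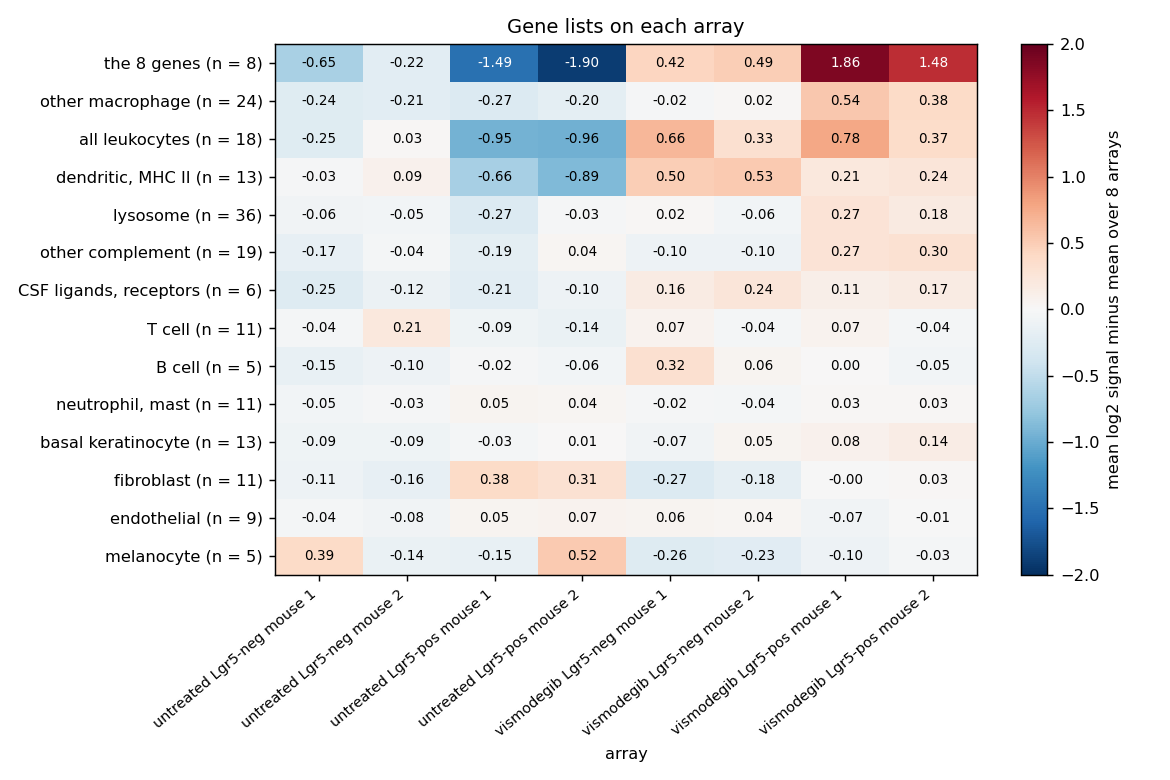
Mean log2 signal of each gene list (vertical axis, with the number of genes) on each array (horizontal axis), minus its mean over the 8 arrays, as colour and number. The 8 genes run from −1.90 to 1.86, leukocyte and dendritic lists are low in the untreated Lgr5-positive arrays, and the T cell, neutrophil and keratinocyte lists stay within 0.21 of their mean.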

How the data were processed

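Amplified cDNA from sorted cells was read on 8 arrays. The deposited table holds log2 signals computed by the authors through RMA, per the submitters' processing notes, which name no version; RMA sets the arrays to 1 distribution of signals and gives no detection calls. Sample groups came from the labels. Of 45141 probe sets, 28898 had 1 gene symbol, 551 several, 104 were controls and the rest are unnamed here. Each gene was represented by its brightest probe set, by mean, symbols were checked through Entrez identifiers (28689 matched), and genes above 4.85 (25th percentile) in at least 2 arrays were tested (14403). Depth does not apply; the number of arrays limits precision.

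Limma 3.58.1 in R 4.3.3 fitted 4 group means (4 residual and 3.53 prior degrees of freedom, two-sided), with Benjamini-Hochberg adjustment over 14403 genes and a threshold of 0.05; the procedure was tested on simulated data. A fold against a group with both arrays dim is given as a bound against the limit. Another normalization (cyclic loess), filters, probe set rule, prior and blocks, and each array left out, were tried. The 8 genes, the lists, tests and alternatives were chosen with earlier results of these data known. Named genes were the 8, up to 4 called genes per list and comparison with the largest change, the most alike genes by Pearson's r, and defining markers. Both populations come from the same mouse, so the mouse pairs them: in deviations from group means, arrays of a mouse correlated at 0.142 (untreated) and 0.211 (vismodegib).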

Additional observations from a re-analysis of the deposited data

Results flagged for a closer look

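The vismodegib effects in the 2 populations differed, by limma's test of the difference, for 5 genes of the marker and pathway lists. These were 2 of 19 macrophage, 1 of 17 leukocyte, 1 of 13 dendritic and 1 of 16 complement genes tested. The lists for lysosomes (36 tested), keratinocytes (13), T cells (11), endothelial cells (7), fibroblasts (6), CSF ligands and receptors (6), neutrophils and mast cells (5), melanocytes (5) and B cells (4) gave 0. Genes named for their likeness to the 8 were picked on these values and are not counted, nor is Lgr5, which set the gate. The log2 difference between the effects was 4.26 for Pf4 (adjusted p = 0.0142) and 3.28 for Tyrobp (adjusted p = 0.0171), and both calls were lost without vismodegib Lgr5-positive mouse 1 or untreated Lgr5-negative mouse 2. It was 1.4 for H2-Ab1, an MHC class II chain (adjusted p = 0.019), a call lost also without vismodegib Lgr5-positive mouse 2 and as the mean of its probe sets. It was 2.48 for C5ar1 (adjusted p = 0.0319), lost without any of 6 arrays and kept without either vismodegib Lgr5-negative array, and 1.56 for Ms4a7 (adjusted p = 0.0455), lost without any array but vismodegib Lgr5-negative mouse 2. The call of Ms4a7 was lost also with no filter, as the mean of its probe sets and with the mouse as a replicate block. Its difference was 0.83 at the lowest of these other alternative settings. Over all genes 1.4% passed the test of the difference between effects, 0.993% upward. Pf4 passed the filter on dim genes only through the vismodegib Lgr5-positive arrays, where it is high.

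Cd68 was higher after vismodegib in both Lgr5-positive arrays and lower in both Lgr5-negative arrays, by a difference of 1.67 on the log2 scale. It is one of the 8 genes, and this difference was not tested.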

How the results depend on the processing

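The median log2 difference of the 8 genes kept its sign in all 5 comparisons under each alternative (no filter, filter at the median, mean of probe sets, cyclic loess, an intensity trend in the prior, only the arrays compared, the replicate blocks and each array left out). Leaving out each array gave 2.55 to 2.93 and 0.74 to 1.26 for the drug effect in Lgr5-positive and Lgr5-negative cells, −1.19 to −0.49 and 0.61 to 1.06 for the populations untreated and after vismodegib, and 1.60 to 2.03 for the difference between effects. The count of macrophage list genes past the threshold, in the same order, was 10, 2, 2, 2 and 2, and ranged over the left-out arrays from 6 to 10, 0 to 2, 1 to 2, 1 to 2 and 0 to 2. With no filter it was 1 for vismodegib in Lgr5-negative cells, populations after vismodegib and the difference between effects. It was 1 for populations after vismodegib as the mean of probe sets. With only the arrays compared it was 6, 1 and 1 for the drug effect in Lgr5-positive and Lgr5-negative cells and populations after vismodegib. With the mouse as a replicate block it was 1 for the difference between effects, and with the mouse number as a replicate block 1 for vismodegib in Lgr5-negative cells, where the number joins different mice. With the mouse as a random replicate block (correlation 0.0823) none of these 5 counts moved by over 1.5 times. Over all genes, the count for populations after vismodegib was 68, against 36 with no filter, 11 with only the arrays compared and 105 with the mouse as a replicate block, and for vismodegib in Lgr5-negative cells 478 against 234 with only the arrays compared. Leaving out 1 array moved the all-gene counts, in the order above, from 1566, 478, 2466, 68 and 202 to 543 to 1823, 65 to 523, 582 to 2852, 18 to 107 and 2 to 251. The cause was not tested. No called value changed sign. Groups of 2 mice limit precision, and dim genes such as Lyz2 in untreated Lgr5-positive cells have only a bound.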
